A study of Mus musculus with 2 samples.

Results

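REST (Rest, also called NRSF) is a zinc finger repressor that binds a long DNA element, the RE1, in the control regions of neuronal genes. It carries 2 repressor arms: one recruits the Sin3 scaffold with histone deacetylases, and the other recruits CoREST, which tethers the histone H3K4 demethylase LSD1 and the deacetylases HDAC1 and HDAC2. REST is known to fall as progenitors become neurons, which frees its neuronal targets, while its corepressors stay in use by other factors. The 8 genes described here are Rest, the CoREST genes Rcor1, Rcor2 and Rcor3, the demethylase gene Kdm1a (LSD1), the deacetylase genes Hdac1 and Hdac2, and the scaffold gene Sin3a. They were chosen by name, out of 21938 protein-coding genes of GENCODE M21 on chromosomes 1 to 19, X and Y.

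Open chromatin was measured by DNase-seq, which sequences the ends left by DNase I where DNA is accessible. The tissue was hippocampus of B6CASTF1/J males at 14 days of age. B6CASTF1/J is the first-generation hybrid of a C57BL/6 and a CAST parent, and the labels call the tissue a layer of hippocampus without naming the layer. There was 1 group of 2 biological replicates. Each label names 3 males, both carry 1 donor identifier, and nothing says that the replicates came from separate animals, so the spread between them may be technical.

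Replicate 1 had 115072 peaks and 285181 footprints, and replicate 2 had 95711 peaks and 244137 footprints; read totals were not used here. A footprint is a short protected stretch inside open chromatin. Promoter peaks were found in both replicates at all 6 pan-neuronal and all 6 hippocampal neuron markers. The count was 4 of 6 for astrocytes and 3 of 6 each for interneurons and the oligodendrocyte lineage. For microglia, endothelium, choroid plexus and blood it was 2 of 6 each. Over all protein-coding genes the share was 64.3%, so the astrocyte count was near that share. The tissue is a mixture, so fewer open cells of a type and less opening per cell cannot be told apart. With 1 group and 2 replicates no test was possible, and what follows is a description.

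A promoter is taken as 1 kb either side of any annotated start site of the gene, and each gene was searched over its body and 10 kb either side. The value of a peak is the authors' own signal, whose unit is not stated. Both replicates had promoter peaks at all 8 genes, as they did at 64.3% of all protein-coding genes, so this count says little about these 8. The levels differed widely among them. Rcor1 had the highest promoter peak in both replicates, and Rest had the lowest in both. The median of the 8 genes was 4.04, beside 2.87 for the 14116 protein-coding genes whose promoters had peaks in both replicates.

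**Figure D1:**
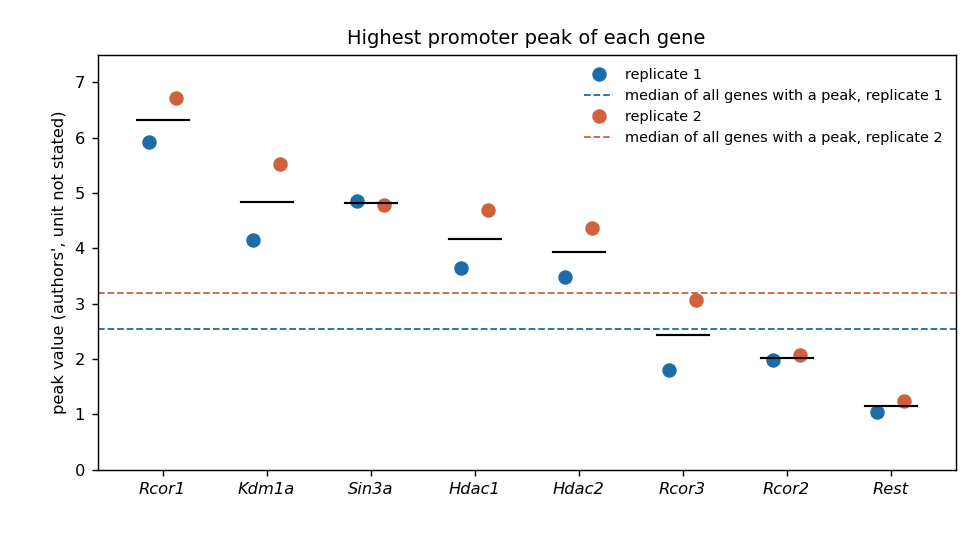
Highest promoter peak of each gene (authors' value, vertical axis) in replicate 1 (blue) and replicate 2 (orange), with the mean as a black bar. Dashed lines are the medians of those 14116 genes, 2.54 in replicate 1 and 3.19 in replicate 2. Rcor1, Kdm1a, Sin3a, Hdac1 and Hdac2 lie above both lines, and Rcor3, Rcor2 and Rest lie below the line of their own replicate.

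Rest itself had the least open promoter of the group by the value of the highest peak. The gene lies at chr5:77265491-77286432 on the plus strand. Its highest promoter peak had a value of 1.05 in replicate 1 and 1.24 in replicate 2, a mean of 1.14 ± 0.136 (SD, n = 2), at the 16.6th percentile of those 14116 genes. Those peaks ran from -330 to 69 bp around the 5′ end in replicate 1 and from -350 to 549 bp in replicate 2, negative positions lying upstream. Further low peaks lay just inside the gene: replicate 1 had promoter peaks of 0.969, 0.629 and 0.672, and replicate 2 had 0.946 and 0.889. Peaks touching the Rest promoters covered 1340 bp in replicate 1 and 1380 bp in replicate 2, counted over their whole length, also beyond the promoter. Among the other genes this ran from 300 bp at Hdac1 to 2700 bp at Sin3a in replicate 1. In replicate 2 it ran from 760 bp at Kdm1a to 3409 bp at Sin3a. By bases in such peaks Rest was thus not the lowest: only Sin3a had more in replicate 1, and only Sin3a, Rcor3 and Rcor2 had more in replicate 2.

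Outside its promoters Rest had 1 peak met in both replicates, in an intron 10597 bp from the 5′ end. Its value was 0.332 in replicate 1 and 0.440 in replicate 2, below the median of all peaks in each library (0.594 and 0.734). The stretch common to both peaks, chr5:77276088-77276180 on the plus strand, is shown because it was the 1 open site of Rest away from its start in both replicates. No footprint there was met in both replicates, so it has no capitals; here and in the sequences that follow, capitals mark bases inside a footprint in both replicates, and the letters are those of the reference genome (GRCm38), not of the hybrid.
Rest intron: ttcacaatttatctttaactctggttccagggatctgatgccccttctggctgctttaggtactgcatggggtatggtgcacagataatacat
Replicate 1 also had a peak of 0.304 over a coding exon 16866 bp from the 5′ end, which replicate 2 lacked. Rest held 14 footprints in each replicate, of which 4 from replicate 1 were met in replicate 2. A footprint counts as met when a single footprint of the other replicate covers at least 50% of it.

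The 3 CoREST genes, which encode the scaffolds that join LSD1 to the deacetylases, spread over most of the range. Rcor1 (chr12:111039351-111115901, plus strand) had a highest promoter peak of 5.92 in replicate 1 and 6.71 in replicate 2, a mean of 6.31 ± 0.559 (SD, n = 2) at the 93.9th percentile. A second, separate peak lay just upstream, from -590 to -311 bp, with values of 3.49 and 4.79. Both strong peaks of Rcor1 thus lay upstream of its first base, while the highest peak of Rest lay across it. Of 17 promoter footprints in replicate 1, 10 were met in replicate 2. The stretch from -219 to -70 bp (chr12:111039132-111039281) is shown because it lies in the strongest peak of the whole group and has 2 shared footprints that each hold a GC box (GGGCGG on either strand).
Rcor1 promoter: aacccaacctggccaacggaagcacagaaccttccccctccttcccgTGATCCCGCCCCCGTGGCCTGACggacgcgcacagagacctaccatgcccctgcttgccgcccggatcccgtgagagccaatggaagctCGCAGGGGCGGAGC

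Rcor1 also had peaks met in both replicates at 2 places outside promoters. One lay upstream, from -1554 bp, with values of 0.495 and 0.652. The other lay deep in an intron, 49030 bp from the 5′ end, with 1.61 in replicate 1 and 0.889 in replicate 2. This intronic site went against the general tendency, since replicate 2 had the higher value at 40 of the 45 peaks of replicate 1 in the 8 gene windows that were met in replicate 2. Its common stretch, chr12:111088381-111088520, held 41 bases footprinted in both replicates, among them a match to AGGNGGC, letters from the core of the element of the insulator protein CTCF.
Rcor1 intron: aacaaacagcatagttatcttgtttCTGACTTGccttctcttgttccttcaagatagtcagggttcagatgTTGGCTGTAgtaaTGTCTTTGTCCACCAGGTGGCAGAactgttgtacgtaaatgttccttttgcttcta
Elsewhere along its 76.6 kb body and flanks Rcor1 had 3 peaks outside promoters in replicate 1 and 5 in replicate 2 that the other replicate lacked, with values from 0.334 to 0.603.

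Rcor2 (chr19:7267325-7275225, plus strand) had low promoter values and many open sites for its size. Its highest promoter peak was 1.99 in replicate 1 and 2.06 in replicate 2, a mean of 2.02 ± 0.0534 (SD, n = 2) at the 34.1st percentile, and it lay not at the 5′ end but over coding sequence 1436 to 1675 bp downstream, within 1 kb of the starts of shorter transcripts. A peak over the 5′ end itself had values of 1.49 and 1.87. The part of that peak in the first intron, chr19:7267425-7267574, is shown because the highest peak is exonic.
Rcor2 intron at the promoter: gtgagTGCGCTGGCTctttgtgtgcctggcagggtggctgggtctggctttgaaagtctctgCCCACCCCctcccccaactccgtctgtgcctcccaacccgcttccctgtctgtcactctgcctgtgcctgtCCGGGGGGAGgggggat

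Outside promoters Rcor2 had 5 peaks met in both replicates, which is 1.79 per 10 kb of its 27.9 kb window and stands at the 99.4th percentile of all protein-coding genes. At least 1 such peak was found for 53.5% of all protein-coding genes and for 5 of these 8. The other members with any were Rcor1 with 2 and Rest, Rcor3 and Kdm1a with 1 each. Hdac1, Hdac2 and Sin3a had none, counted from replicate 1. Sin3a did have a peak of 3.05 outside promoters in replicate 2, which overlapped a promoter peak of 3.74 in replicate 1. The count of Sin3a was 1 with the authors' shorter peak list and 3 with promoters of 500 bp either side. The count of Rcor2 was 2 with the authors' shorter peak list, 2 with promoters of 2500 bp either side and 1 in its body alone. Not all 5 sites of Rcor2 can be assigned to it. Those 11961 and 13116 bp from its 5′ end lay in exons of Mark2, a kinase gene on the other strand. The exon sequence there was untranslated, except that the replicate 2 peak of the former also reached coding sequence. The strongest lay over the last exon of Rcor2 with values of 1.54 and 1.83. The remaining pair lay upstream between genes, with 1.13 and 1.36 for the site from -3144 bp and 0.891 and 1.01 for the one from -2385 bp. The farther one, shown over chr19:7264181-7264330, had 26 bases footprinted in both replicates.
Rcor2 upstream: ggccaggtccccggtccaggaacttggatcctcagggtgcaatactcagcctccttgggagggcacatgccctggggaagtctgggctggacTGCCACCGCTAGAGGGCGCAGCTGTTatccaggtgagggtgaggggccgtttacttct

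Rcor3 (chr1:192098546-192138062, minus strand) had the largest ratio between the replicates among the highest promoter peaks of the 8 genes, while Kdm1a had the largest difference. The highest promoter peak of Rcor3 was 1.80 in replicate 1 and 3.06 in replicate 2, a ratio of 1.70. The median ratio over 75096 peaks of replicate 1 met in replicate 2, at promoters or elsewhere, was 1.15. For Rcor3 the mean of the highest promoter peak was 2.43 ± 0.887 (SD, n = 2), at the 42.1st percentile. In replicate 2 this peak was 760 bp wide and ran across the 5′ end, from -538 to 221 bp. In replicate 1 it was 60 bp wide and lay upstream, from -258 to -199 bp, and no peak covered the 5′ end. The authors' list of stretches with a raised cut rate did not show this gap: all 760 bases were listed in both replicates at a false discovery rate under 0.001. Replicate 1 also had 17 footprints across those 760 bases and replicate 2 had 9. Only 40.0% of the footprints of Rcor3 in replicate 1 lay in peaks, beside 85.7% of all footprints. Whether the width of the peak bears on its value was not tested. The 60 bp common to both peaks, chr1:192138261-192138320, are shown as read along Rcor3.
Rcor3 promoter: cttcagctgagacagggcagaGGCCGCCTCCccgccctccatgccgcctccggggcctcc

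The promoter window of Rcor3 is shared with the antisense gene Gm10516 and with Gm37055, so its peaks cannot be given to Rcor3 alone. Its 1 peak outside promoters met in both replicates, 0.764 and 0.677, lay beyond its 3′ end in an intron of the antisense gene Gm26879. Shown as read along Rcor3 over chr1:192094601-192094750, it had a footprint in both replicates over another match to AGGNGGC.
Rcor3 downstream: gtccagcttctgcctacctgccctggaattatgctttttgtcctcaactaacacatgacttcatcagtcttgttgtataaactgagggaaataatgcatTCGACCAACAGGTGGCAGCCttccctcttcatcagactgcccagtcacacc

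**Figure D2:**
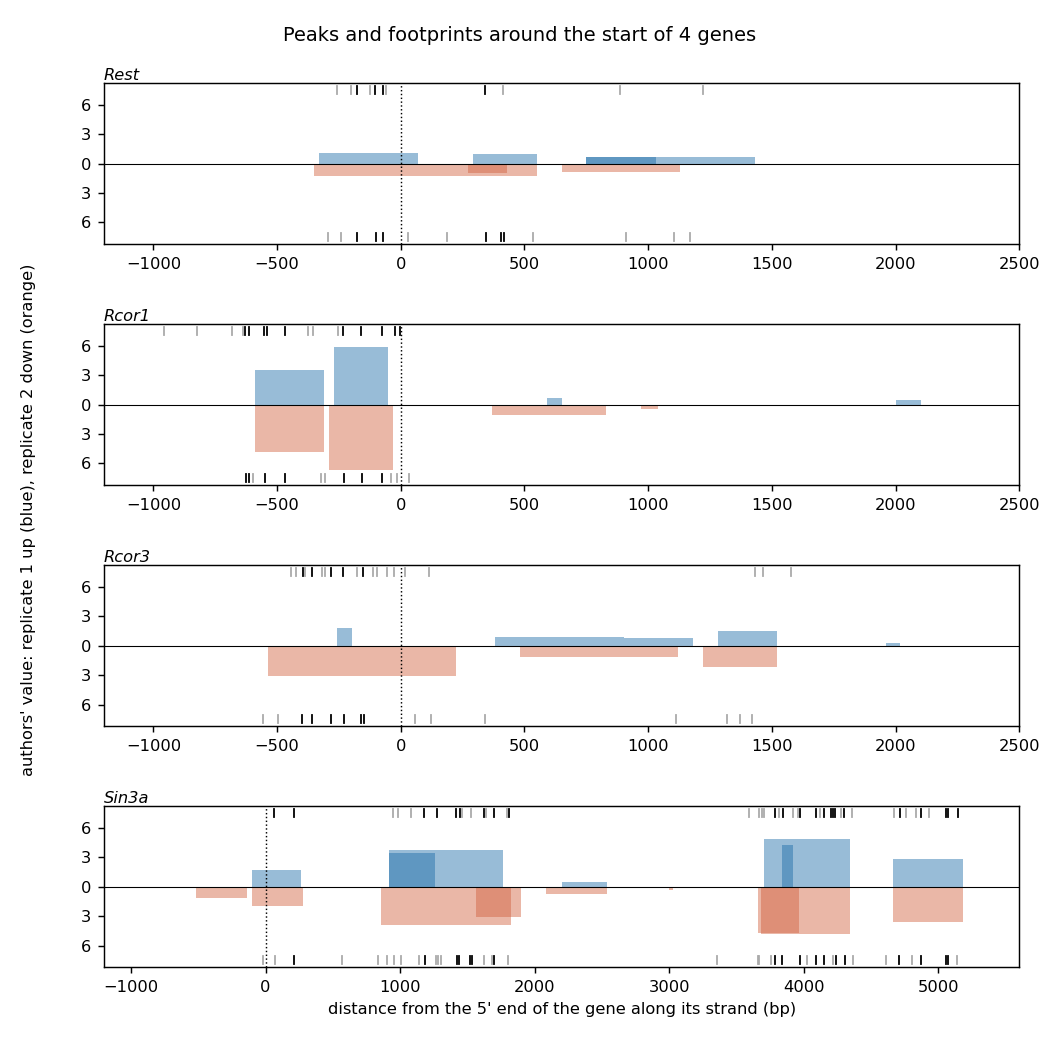
Peaks (shaded boxes, height is the authors' value) and footprints (ticks at the edges, black where met in the other replicate, grey where not) around the 5′ end of Rest, Rcor1, Rcor3 and Sin3a; replicate 1 points up in blue and replicate 2 down in orange, and the horizontal axis is the distance along the gene in bp. Rest is low, Rcor1 is high and upstream, Rcor3 has a 760 bp peak across its 5′ end in replicate 2 and a 60 bp peak upstream of it in replicate 1, and the highest boxes of Sin3a stand 3681 to 4340 bp inside the gene.

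Kdm1a encodes LSD1, which removes methyl groups from lysine 4 of histone H3 and needs CoREST to act on nucleosomes. The gene (chr4:136550540-136602723, minus strand) had a highest promoter peak of 4.15 in replicate 1 and 5.52 in replicate 2, a mean of 4.84 ± 0.968 (SD, n = 2) at the 81.3rd percentile. This was a compact peak, 240 bp wide at the same position in both replicates. Of 12 promoter footprints in replicate 1, 8 were met in replicate 2, and of 6 in replicate 2, 3 were met in replicate 1. In the peak 90 bases were footprinted in both replicates. The 150 bp before the start, chr4:136602724-136602873, are shown because most of those bases lie in them.
Kdm1a promoter: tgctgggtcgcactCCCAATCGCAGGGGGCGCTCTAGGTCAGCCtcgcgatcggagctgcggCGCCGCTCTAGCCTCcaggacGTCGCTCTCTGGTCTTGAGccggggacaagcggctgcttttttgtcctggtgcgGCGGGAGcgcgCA
A weaker intronic peak from 883 bp after the start had 1.07 and 1.05. The peak outside promoters met in both replicates, 0.778 and 0.783, lay in an untranslated exon of the neighbouring gene Luzp1.

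The deacetylases HDAC1 and HDAC2 are close paralogs that sit together in CoREST, Sin3 and NuRD complexes. Their promoters had similar values. Hdac1 (chr4:129516104-129542713, minus strand) stood at 3.63 in replicate 1 and 4.69 in replicate 2, a mean of 4.16 ± 0.745 (SD, n = 2) at the 72.2nd percentile. Hdac2 (chr10:36974544-37001889, plus strand) stood at 3.49 and 4.37, a mean of 3.93 ± 0.625 (SD, n = 2) at the 68.3rd percentile. Hdac1 was slightly above Hdac2 within each replicate, and both genes were higher in replicate 2, by ratios of 1.29 and 1.25. Neither gene had a peak outside promoters in either replicate: all other peaks in the Hdac1 window lay at the promoter of Marcksl1, and Hdac2 had none beyond its own promoter. Hdac2 also had a promoter peak just inside the gene, with 2.24 and 2.94, while Hdac1 had one inside the gene in replicate 2 only, with 0.669. The upstream part of the main Hdac2 peak, chr10:36974362-36974511, is shown with its shared footprints.
Hdac2 promoter: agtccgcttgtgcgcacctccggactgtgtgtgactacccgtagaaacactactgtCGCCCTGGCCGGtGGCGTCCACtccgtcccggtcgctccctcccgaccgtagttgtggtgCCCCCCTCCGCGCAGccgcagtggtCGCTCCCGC

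Sin3a, the scaffold of the Sin3 complex, was the most footprinted gene of the group. The gene (chr9:57072040-57128366, plus strand) had a highest promoter peak of 4.85 in replicate 1 and 4.79 in replicate 2, a mean of 4.82 ± 0.0462 (SD, n = 2) at the 81.0th percentile. That peak was not at the annotated 5′ end, whose own peak had 1.71 and 2.00. It began 3701 bp downstream in replicate 1 and 3681 bp downstream in replicate 2, at the start sites of shorter Sin3a transcripts, in a window shared with the noncoding gene 2700012I20Rik. Peaks of 3.74 and 3.85 lay between them, from 921 and 861 bp inside the gene, and peaks of 2.81 and 3.59 lay farther in, from 4661 bp. A weak peak from 2201 bp in replicate 1 had 0.530 and 0.693. The promoter signal of Sin3a was thus spread over 5 separate stretches, each met in both replicates. The window around the 5′ end is shared with the antisense gene Gm10658. The stretch chr9:57076121-57076270, part of the strongest peak, is shown for its 54 bases footprinted in both replicates.
Sin3a promoter: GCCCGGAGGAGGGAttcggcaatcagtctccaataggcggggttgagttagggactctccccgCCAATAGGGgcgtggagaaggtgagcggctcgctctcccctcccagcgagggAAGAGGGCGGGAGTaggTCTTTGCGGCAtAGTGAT

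The order of the promoter values was largely stable. Replicate 1 ran from Rcor1 through Sin3a, Kdm1a, Hdac1, Hdac2, Rcor2 and Rcor3 to Rest. Replicate 2 exchanged Sin3a with Kdm1a and Rcor2 with Rcor3 and kept the other positions. Kdm1a and Sin3a, and Rcor3 and Rcor2, are therefore neighbours that did not differ beyond their spread. Rcor1 and Rest were set off from the gene next to them in both replicates: the gene below Rcor1 reached 4.85 and 5.52, and the gene above Rest had 1.80 and 2.06.

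**Figure D3:**
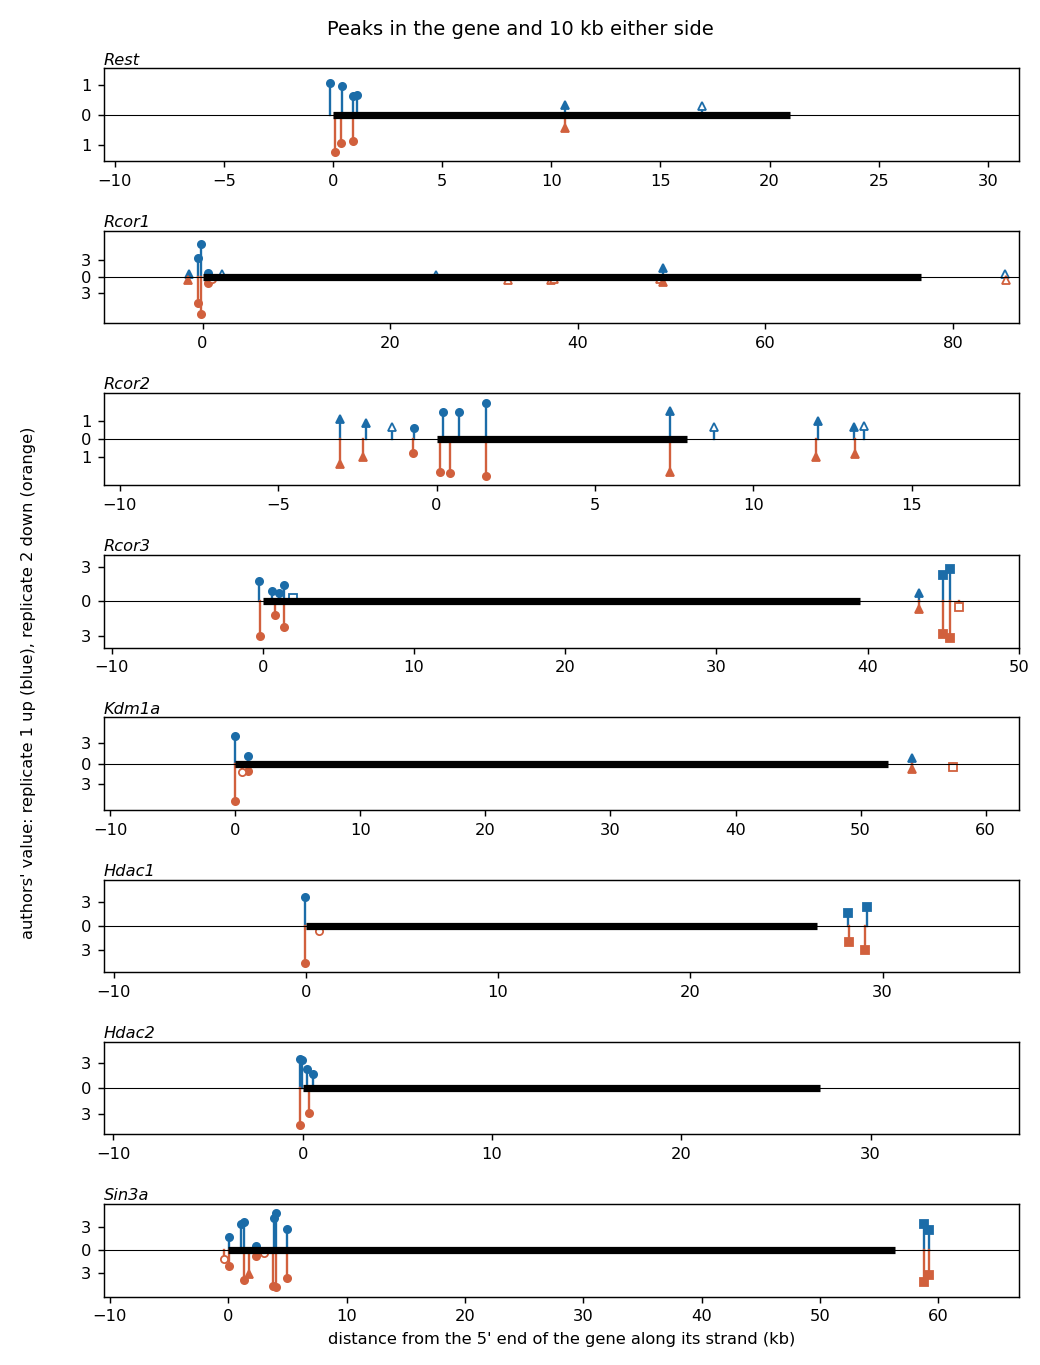
Every peak in the 8 gene windows by distance from the 5′ end (kb, horizontal axis; the scale differs between genes) and authors' value (vertical axis, scaled to each gene), replicate 1 up and replicate 2 down; the black bar is the gene. Circles are own promoter peaks, squares are peaks at the promoters of other genes, triangles lie outside promoters, and filled symbols are met in the other replicate; Rcor2 shows 5 filled triangles of replicate 1, and Hdac1 and Hdac2 show none.

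Over all 8 windows each replicate had 53 peaks. Of these, 45 peaks of replicate 1 (84.9%) and 41 of replicate 2 (77.4%) were met in the other, beside 65.3% and 78.4% of all peaks. In each replicate 29 of the 53 lay at the genes' own promoters, and the shares of all peaks were not split by position. Peaks that were not met were low, with medians of 0.477 and 0.518 in the 2 replicates, against 1.61 and 2.00 for those that were. Among pairs of overlapping peaks the median ratio of replicate 2 to replicate 1 was 1.23 in the 8 windows and 1.15 genome-wide. The genome-wide ratio covers shared peaks at promoters and elsewhere, and none was computed for promoter peaks alone. The median highest promoter peak of all genes with such peaks was 2.54 in replicate 1 and 3.19 in replicate 2. The scaling between the libraries is not stated, so a difference between whole libraries may be part of every SD given here.

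**Figure D4:**
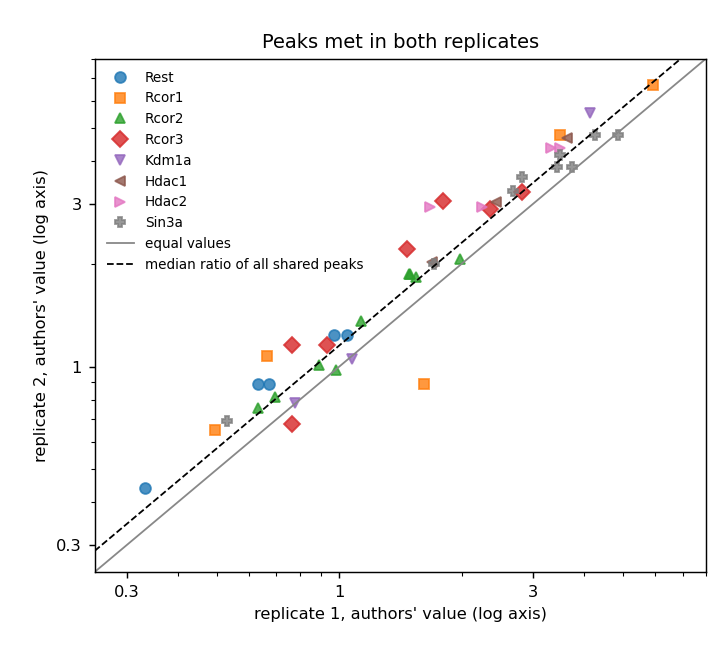
Authors' value in replicate 1 (horizontal, log axis) and in replicate 2 (vertical, log axis) for the 45 peaks of replicate 1 that met a peak of replicate 2, by gene; grey marks equal values and the dashed line the median ratio of 1.15 over all shared peaks. The Rcor1 square at 1.61 and 0.889 is the intronic site, the farthest point below the line of equal values.

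Footprints followed another order than peak values. A footprint met in both replicates was found for all 8 genes and for 74.1% of all protein-coding genes. Sin3a had 60 footprints in replicate 1 and 57 in replicate 2, with 29 of those of replicate 1 met in replicate 2. Rcor2 had 40 and 25 with 13 met, Rcor1 21 and 23 with 12, Hdac1 17 and 18 with 11, Rcor3 30 and 23 with 10, Kdm1a 13 and 10 with 8, Hdac2 11 and 13 with 5, and Rest 14 and 14 with 4. Rcor1, with the highest promoter, thus had fewer footprints than Rcor2, with one of the lowest. Per 10 kb of window the met footprints of replicate 1 were most frequent at Rcor2 (4.66) and Sin3a (3.80) and least frequent at Rest (0.977). The lowest place depended on the direction of counting. From replicate 2, Rest had 6 met footprints in its 40.9 kb window, and Kdm1a had 3 in its 72.2 kb window. Of the footprints in the 8 windows 44.7% in replicate 1 and 45.9% in replicate 2 were met in the other, beside 31.8% and 37.5% of all footprints. These sets are unlike in position. In replicate 1, 132 of the 206 footprints in the windows lay at the genes' own promoters, and 122658 of all 285181 footprints lay at any promoter. The shares of all footprints were not split by position. At Sin3a 16 footprints of replicate 1 lay at the promoters of other genes, among them the promoters of Man2c1 and Man2c1os beyond its 3′ end, and at Hdac1 8 did, at the promoter of Marcksl1.

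**Figure D5:**
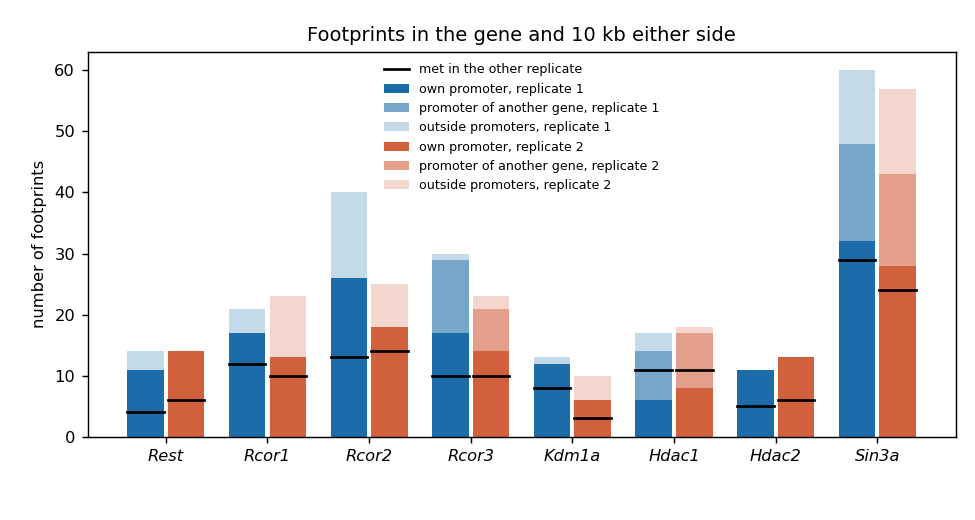
Number of footprints in each gene and 10 kb either side, replicate 1 in blue and replicate 2 in orange, split by shade into own promoter, promoters of other genes and outside promoters; the black line marks how many were met in the other replicate. Sin3a has 60 and 57 footprints, and Rest has 14 in each replicate, of which 4 and 6 were met.

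Short consensus letters were searched on both strands in the members' promoter footprints with 5 bp added to each side. The GC box GGGCGG, the element of SP and KLF factors, was in 18.9% of the 132 promoter footprints of replicate 1 and 24.6% of the 114 of replicate 2, beside 11.7% and 12.5% of all promoter footprints. It was found at 7 of the 8 genes in each replicate and not at Kdm1a. Footprints of 1 gene share a region and GC content, so these are not independent counts. AGGNGGC was in 5.30% and 7.02%, beside 4.76% and 4.88%. CCAATNA, letters of the NF-Y element, was found in 2 footprints in each replicate (1.52% and 1.75%), all at Sin3a, beside 0.950% and 0.874% of all promoter footprints. AAGATGGC, letters of the YY1 element, was in 1 footprint of Hdac1 in replicate 2 and in none of replicate 1, beside 0.316% and 0.299% of all. Letters of NRF1 (CGCATGCG), ETS (CCGGAAG), CRE (TGACGTCA), AP-1 (TGANTCA) and NEUROD (CAGATGG) elements were in none, beside at most 1.08% of all promoter footprints for any of them. The same held, at no more than 0.659%, for CACGTG, TCTCGCGAG (ZBTB33), ACTACAATT (ZNF143), GCGTGGGCG (EGR), CTATTTATA (MEF2), ACAATGG (SOX), TAATTA (homeobox) and the NFI pair TTGGC and GCCAA 5 bases apart. Each part of the RE1, TCAGCACC and GGACAGC, was in 1 promoter footprint of Rcor2 in replicate 2 and in none of the others. These were different footprints, centred 908 bp from the 5′ end for TCAGCACC and 5.5 bp for GGACAGC. Among all promoter footprints, 0.0742% and 0.0764% held the former part and 0.384% and 0.399% the latter. In the RefSeq promoter table (GRCm38.p6, 250 bases before to 50 after each start) 6 of the 8 genes were matched, all but Rest and Hdac1. Their promoters held 14 to 47 CpG dinucleotides, against a median of 7 over 32851 promoters, and 5 of the 6 held GGGCGG, as did 35.7% of all.

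The RE1 was searched as TCAGCACC and GGACAGC with 2 bases between them, on both strands. No match was found in any of the 8 windows, Rest included, and none with 1 of the 15 letters differing. At that looser setting 3.86% of all protein-coding genes had a match in the same kind of window, and the letters searched do not cover every form of the element. For comparison the same search was made at 18 neuronal genes known to carry an RE1. Exact matches were found at 7 of them and matches with at most 1 letter differing at 15, 17 matches in all. Of these 17, 10 lay in a peak of both replicates, 9 in a footprint of at least 1 replicate and 3 in a footprint of both. For an RE1, here and below, an overlap of 1 bp was enough, so a footprint need not cover the whole element. Genome-wide, 26.7% of 191 exact matches and 12.4% of 1120 matches at the looser setting lay in a peak of both replicates.

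The RE1s of 6 of these genes are shown to set footprinted elements beside elements outside any peak; capitals here mark letters equal to the consensus. Those of Chrnb2, a nicotinic receptor subunit gene, Gria2, an AMPA receptor subunit gene, and Vgf, a neuropeptide precursor gene, were in a footprint of both replicates. Those of Scn2a, a sodium channel gene, Stmn2, a microtubule regulator gene, and Chrm4, a muscarinic receptor gene, were exact matches outside any peak or footprint.
Chrnb2, chr3:89764457-89764473: cggctTCAGCACCacGGACAGCgctcc
Gria2, chr3:80802990-80803006: cgattTtAGCACCgcGGACAGCgcttt
Vgf, chr5:137030277-137030293: cggctTCAGCACgctGGACAGCgcccg
Scn2a, chr2:65619965-65619981: ggcttTCAGCACCacGGACAGCaccag
Stmn2, chr3:8508231-8508247: ccattTCAGCACCacGGACAGCgcttc
Chrm4, chr2:91921336-91921352: caggtTCAGCACCtcGGACAGCcccac
Positions are those of the element, and 5 bases were added at each side. The elements of Chrnb2, Scn2a and Stmn2 have the same 17 bases. That of Chrnb2 was in peaks of 1.35 and 1.88, while those of Scn2a and Stmn2 were in none. The element of Gria2 lay in a peak of 3.15 in replicate 1 and in no peak of replicate 2, although both replicates had a footprint overlapping it. The RE1 of Vgf lay in the highest of these peaks, 4.33 and 4.97.

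Both replicates had promoter peaks at all 18 of these target genes, as at 64.3% of all protein-coding genes. Their median value was 1.89, below the 2.87 of all protein-coding genes with such a peak. The highest were Vgf at 4.65 ± 0.446, the synaptic vesicle priming gene Unc13a at 3.55 ± 0.833, the cadherin gene Celsr3 at 3.20 ± 0.493 and the tubulin gene Tubb3 at 3.15 ± 0.793 (each SD, n = 2). The lowest, named after their values were seen, were the adhesion gene L1cam at 0.465 ± 0.127, the glycine receptor gene Glra1 at 0.881 ± 0.0456 and the calbindin gene Calb1 at 1.11 ± 0.165 (each SD, n = 2), the 3 of the 18 below the 1.14 of Rest. No difference between the lists was tested.

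A list of 33 further genes of the same machinery was read in the same way. Promoter peaks were present in both replicates at all 33, as at 64.3% of all protein-coding genes. The median value was 4.08, beside 4.04 for the 8 genes and 2.87 for all protein-coding genes with such peaks. By part, the median was 2.88 for 9 CoREST and LSD1 partners, 4.43 for 12 Sin3 subunits, 3.74 for 9 other REST cofactors and 3.03 for 3 genes that control REST. The highest were Btrc, a ubiquitin ligase subunit that targets REST for degradation, at 10.2 ± 2.44, the Sin3 subunit gene Ing2 at 9.24 ± 1.05 and the Sin3 subunit gene Suds3 at 7.78 ± 1.94 (each SD, n = 2). The lowest of the 33 was the zinc finger gene Zfp217 at 1.93, named after its value was seen, so every partner had a higher mean than Rest. Matches to the RE1 with 1 letter differing were found at 2 of the 33. Srrm4, which encodes the splicing factor that makes the neuronal Rest isoform, had 4, of which the one 311 bp inside the gene was in a footprint of both replicates, in a peak of 1.51 in replicate 2 and in no peak of replicate 1. Usp7, a deubiquitinase gene, had 1 outside any peak.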

How the data were processed

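DNase-seq was deposited for 2 biological replicates of 1 tissue, each as 2 peak lists, a footprint list and a list of cut rate stretches. Per the file headers and descriptions, every file was made from 1 library aligned to mm10, without pooling. For the aligner and caller, names were not given in the sources used here. Every peak has a signal that the authors deposited with no unit or scaling named. The p-value columns deposited by the authors are false discovery rates: 0.01 for every footprint, and under 0.05 for cut rate stretches. The longer peak list was used.

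Genes came from GENCODE M21 and sequence from GRCm38.p6. Peaks were met if they overlapped by 1 bp. A peak at any promoter was set aside from the count outside promoters, and met counts start from replicate 1 unless stated. Peaks of 1 list can overlap. The 8 genes, the lists, the motifs and the alternatives were chosen with earlier results of these data known. All 8 genes were named, with the 4 highest promoters of the partner list and of the target list, any listed gene lacking a promoter peak in a replicate (none did), and genes sharing a promoter window; genes at an RE1 were named after their values were seen. 1 gene that the rule takes is not reported here. No test was run. Read depth is unknown, so no counting interval is given. The code was tested on simulated data (Python 3.11.15, numpy 2.4.6, pandas 2.3.3, matplotlib 3.10.9).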

Additional observations from a re-analysis of the deposited data

How the results depend on the processing

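The promoter peak in both replicates held for all 8 genes with promoters of 500 or 2500 bp, with start sites of protein-coding transcripts, with the shorter peak list and in each replicate alone. The median promoter value of 4.04 was 3.56 to 4.53 with 1 replicate left out, and Rcor1 stayed highest and Rest lowest under each of these settings and with both libraries brought to 1 median. The 10 peaks outside promoters met in both replicates depended on the window and the list: 3 in gene bodies, 45 with 50 kb either side, 4 with the shorter list, 5 with promoters of 2500 bp, 16 when promoters of other genes were not set aside, and 16 to 17 with 1 replicate left out, where no meeting is needed. The 92 met footprints became 43 in gene bodies, 162 with 50 kb either side, and 183 to 206 with 1 replicate left out. At Rest the 1 intronic peak was lost with the shorter list. Other settings moved these totals by at most 1.5 times. Of 137 values per gene and setting, 39 moved, 19 up and 20 down, most with the window. Merging peaks, keeping promoters of other genes, counting from replicate 2 and the looser RE1 were chosen after seeing the data. No paired analysis was possible because there is 1 group. Without read totals, no limit can be set on what was missed.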
